A study of Mus musculus with 16 samples.

Results

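The genes described here are 37 genes of neuroectoderm and of neural cells, from transcription factors of the neural plate to proteins of neurons and glia. They were chosen by gene symbol, and each gene was read from 1 probe set, of those that name it alone the one whose mean over the 16 arrays was highest. This found 36 of the 37 genes, with 80 probe sets, among 18193 genes and 45037 probe sets on the array. Pax2 is not analysed here. Of the 36 genes, 17 had 1 probe set and 19 had 2 or more.

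Expression was measured on Affymetrix mouse arrays in EB5 ESC, a mouse embryonic stem cell line. EB5 NERT cells carry an intracellular domain of Notch1 that 4-hydroxy-tamoxifen (OHT) switches on, expressed from the pCAG vector, and EB5 control cells carry that vector without NERT. NERT ESC were kept for 4 h in serum-free ectoderm-favouring medium (ESCe) or in mesoderm-favouring medium with FCS (ESCm), with 1 array each without and with OHT. Control ESCm and control mesodermal cells also gave 1 array each without and with OHT. NERT mesodermal cells, ESC that had differentiated for 4 d on Collagen IV with FCS, were hybridised in 4 conditions of 2 arrays each, namely no agent, OHT, cycloheximide (CHX), and both agents. OHT was added at 1 µM and CHX, which blocks protein synthesis, at 50 µg/ml, both for 4 h. Nothing in the labels says that the paired arrays came from separate cultures, so p-values measure only the spread between arrays, which may be technical. Each line stands for 1 construct here, and line and construct cannot be told apart. Array medians lay between 42 and 46.9, and the number of arrays limits the precision.

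The Notch pathway acts between neighbouring cells. A ligand on one cell releases the intracellular domain of the receptor in the other, and this domain joins the DNA-binding protein RBP-J and switches on target genes, among them the Hes repressors. In the neural tube this signal is known for keeping progenitors undifferentiated by holding down proneural bHLH factors, and for favouring radial glia, whose lipid-binding protein is encoded by Fabp7. Neuroectoderm itself is marked early by Sox1, Zic1 and Pax6.

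Hes5 and Nrarp, the standard Notch target genes, served as the check of induction. Hes5 rose from 28.5 to 608 in NERT ESC and from 24.2 to 1478.5 in NERT mesodermal cells (limma adjusted p = 1.11e-06 and 5.72e-06), and it stood at 17.5 and 18.4 in control cells without and with OHT. Nrarp rose from 112 to 1730 and from 621 to 5182 in the same NERT cells (limma adjusted p = 1.11e-06 and 7.96e-05). In control cells it stood at 71.2 without and 69.1 with OHT. The labelled populations were checked by their defining markers. Of the 5 neuroectoderm markers (Pax6, Sox1, Nes, Zic1 and Six3), Zic1 stayed under 25, about the level of undetected probe sets, on all 12 arrays without CHX. Sox1 did so on the mesoderm arrays without CHX. Nes was not low, at 94.35 to 444 in ESC and 171 to 831 in mesodermal cells without CHX. With and without OHT the sum of the 5 was 459 to 820 in NERT ESC and 239 to 254 in control ESCm. In mesodermal cells without CHX it was 324 to 329 in control and 278 to 919 in NERT cells. The sum of 5 pluripotency markers was 11590 to 12515 in ESC, 9378 to 9536.5 in control and 5193 to 5912 in NERT mesodermal cells. That of 6 early mesoderm markers was 360.0 to 518, 1248 to 1303 and 2755 to 3802 in the same populations.

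Differences are log2 ratios of intensity plus 25, which shrinks the differences of dim genes. A gene was called when the adjusted p of limma over all tested probe sets was under 0.05. A probe set was tested if at least 1 group mean was 50 or more, which 21 of the 36 genes passed in the fit of the 8 NERT mesoderm arrays and 24 in the fit of all 16. The other 12 genes stayed below 50 in every group mean, on all arrays between 1 and 55.4. They were Zic2, the proneural factors Neurog1 and Neurog2, the POU factor Pou3f2, the microtubule protein Dcx of young neurons, and the regional factors Lhx2, Olig2, Dlx1, Emx2, En1, Pax7 and Rax. Zic2 was the only one of them with a value over 50, on an array of uninduced NERT mesodermal cells (55.4, against 28.5 on the other). Because the genes that were tested include some that passed through the group in which they were high, the counts below are not counts over all 36 genes.

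**Figure D1:**
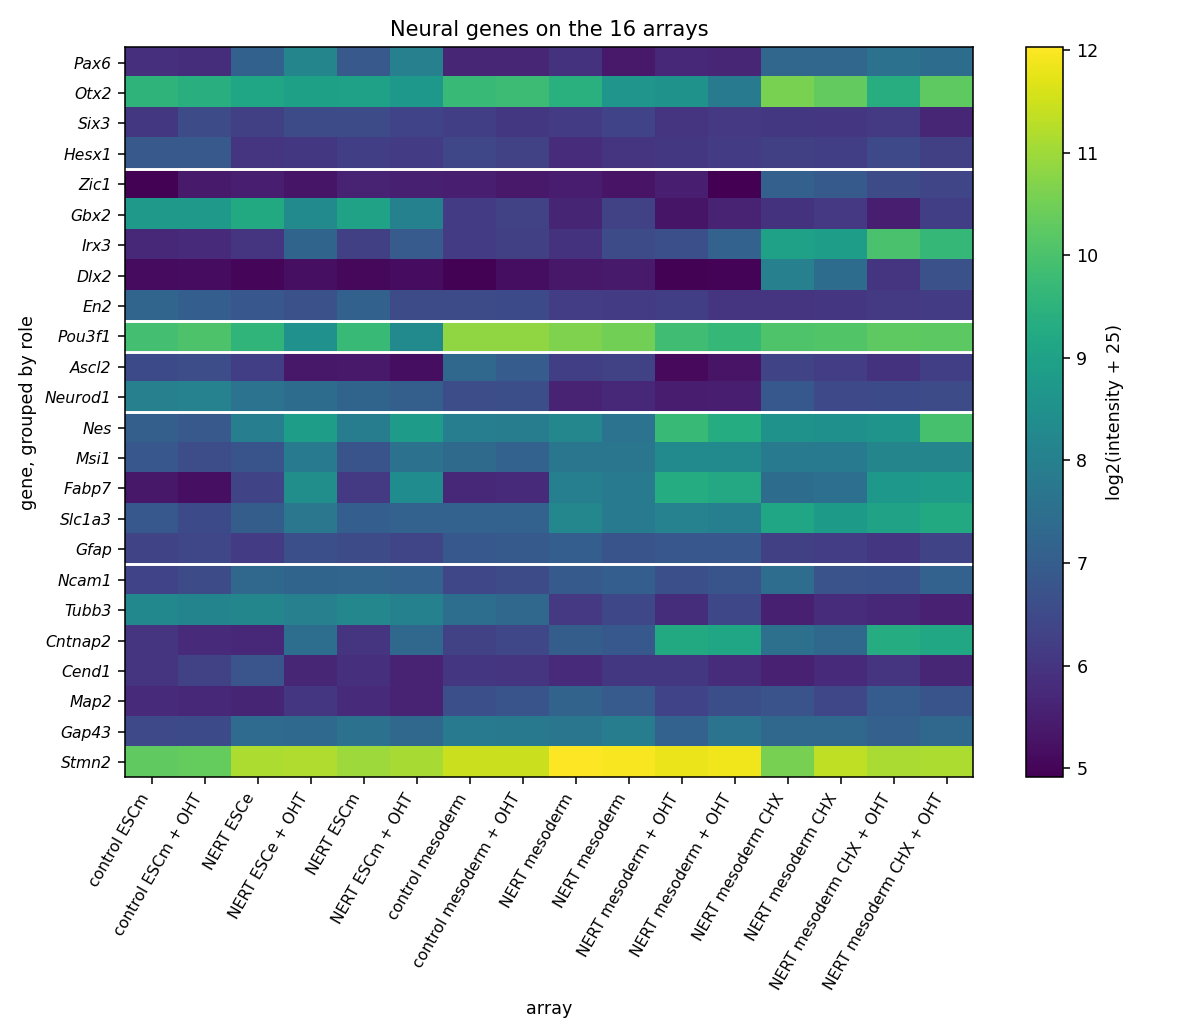
Heat map of the 24 tested genes (rows, grouped by role with white lines between the groups) on the 16 arrays (columns), coloured by log2 of intensity plus 25. Zic1, Irx3 and Dlx2 are brightest on the 4 CHX arrays, Gbx2 on the ESC arrays, and Fabp7 and Cntnap2 are brighter on the OHT arrays of NERT cells than on those without OHT.

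In NERT ESC, OHT raised 4 of the 24 tested genes and lowered 1. The genes that rose were Fabp7, the radial glia fatty acid binding protein, Cntnap2, a neurexin-like adhesion protein of neurons, Pax6, the paired-box regulator of eye and forebrain, and Msi1, an RNA-binding protein of neural progenitors. Pou3f1 (Oct6), a POU factor of epiblast and neural cells, fell. Over all tested probe sets 0.538% were called in this comparison, 0.507% as higher and 0.031% as lower. The median log2 change was 0.02 for the 24 genes and 0.06 for all probe sets. In bulk samples like these a change in the number of cells of a type and a change in RNA per cell cannot be told apart.

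Fabp7 stood at 57.1 in ESCe and 44.6 in ESCm without OHT and at 322 and 307 with it. Both induced arrays were above both uninduced ones, and the mean was 6.18-fold higher (log2 change 2.17, SE 0.13, limma adjusted p = 7.37e-06). Cntnap2 read 27.5 and 38.2 without OHT and 154 and 129.99 with it (1.53, SE 0.16, adjusted p = 0.000518 in limma). Its groups also did not overlap. How many of all probe sets separate in this way with 2 arrays a side was not counted. Such separation, here and below, therefore describes the values and adds nothing to a call. Pax6 went from 115 to 258 in ESCe and from 93.8 to 235 in ESCm, a rise of 2.35-fold in the mean (1.07, SE 0.17, adjusted p = 0.011 in limma). Of these genes it had the smallest margin to the threshold after adjustment, and its call was lost with a pseudocount of 5, with the mean of its probe sets and with the 12 conditions as groups (adjusted p up to 0.205). Msi1 went from 84.1 to 205 in ESCe and from 82.8 to 163 in ESCm (0.94, SE 0.13, adjusted p = 0.00334). Pou3f1 dropped from 735 to 341.5 in ESCe and from 807 to 286 in ESCm, to 0.407 of the uninduced mean (-1.24, SE 0.13, adjusted p = 0.000637). All 5 genes moved the same way in both media.

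A further 6 genes had an unadjusted p under 0.05 in ESC without passing the adjusted test, which makes 11 of 24 in all. Over all 25847 tested probe sets, 1602 had an unadjusted p under 0.05 in this comparison. Irx3, an Iroquois factor of the neural tube, read 38.8 and 123 in ESCe without and with OHT and 50.9 and 98.2 in ESCm (log2 difference 0.96, adjusted p = 0.109). Gbx2, a factor of the midbrain-hindbrain border that ESC also express, read 577 and 292 in ESCe and 494 and 235 in ESCm (-0.96, adjusted p = 0.154). Nes, the intermediate filament of neural stem cells, was at 222 and 444 in ESCe and 217.5 and 422 in ESCm (0.90, SE 0.34, adjusted p = 0.591). Its induced arrays lay above the uninduced ones in both media, but the spread that limma estimated for this probe set was wide. Cend1, a protein of cell cycle exit in neurons, read 84.9 and 25.6 in ESCe and 35.0 and 23.9 in ESCm (-0.71, adjusted p = 0.291), so most of its difference lay in ESCe. Ascl2, a bHLH factor related to the proneural genes and best known from trophoblast, was at 49.4 and 16.6 in ESCe and at 16.7 and 10.9 in ESCm (-0.53, adjusted p = 0.49). En2, an engrailed factor of the midbrain, read 90.2 and 77.3 in ESCe and 113 and 69.7 in ESCm (-0.36, adjusted p = 0.691).

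The study's methods ask for a 2-fold change, a gap of more than 50 and a higher value judged present by the software. Only the fold and the gap were applied here, without detection calls. They are called the 2-fold criteria and need no replicates. By them 5 of the 24 genes were higher and 2 lower with OHT in ESCe, where 0.631% of all probe sets passed (0.58% higher and 0.0503% lower). In ESCm these criteria gave 3 higher and 2 lower, beside 0.7% of all probe sets (0.615% higher and 0.0851% lower). Pax6, Fabp7 and Cntnap2 were higher and Pou3f1 lower in both media, Msi1 and Irx3 passed as higher only in ESCe, Cend1 passed as lower only in ESCe and Gbx2 only in ESCm. Whether the media differed in these responses was not tested. Without OHT limma called none of the 24 genes between ESCe and ESCm, with 0% of all probe sets called. At an unadjusted p under 0.05 there were 768 of all 25847 tested probe sets and 3 of the 24 genes. These were Ascl2 (49.4 in ESCe and 16.7 in ESCm), Neurod1, a bHLH factor of neuronal differentiation (171 and 121.5), and Cend1 (84.9 and 35.0).

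In control cells OHT moved none of the 24 genes by limma, and none at an unadjusted p under 0.05, with 0% of all probe sets called and 308 at an unadjusted p under 0.05. By the 2-fold criteria none passed either, beside 0.0851% of all probe sets in the ESCm pair and 0.0426% in the mesoderm pair. Log2 differences lay between -0.22 and 0.19. Fabp7 read 15.97 and 12.1 in control ESCm and 27.7 and 29 in control mesodermal cells without and with OHT. Pax6 read 34.6 and 32.6, and 26.2 and 25.9, in the same order. The response of NERT ESC was set against that of control cells in the same fit, which called 3 genes higher and 1 lower (0.143% of all probe sets, 0.139% higher and 0.00387% lower). They were Fabp7 (difference of the responses 2.22, SE 0.19, adjusted p = 0.000307), Cntnap2 (1.59, adjusted p = 0.016), Msi1 (1.16, adjusted p = 0.0216) and Pou3f1 (-1.30, adjusted p = 0.0169). The call for Msi1 was lost with the 12 conditions as groups (adjusted p = 0.201) and without either uninduced NERT mesoderm array (0.0524 and 0.0527), and those for Pou3f1 and Cntnap2 with the 12 conditions or the mean of the probe sets (0.0664 to 0.454). For Pax6 this difference was 1.10 (SE 0.24, adjusted p = 0.178 in limma).

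**Figure D2:**
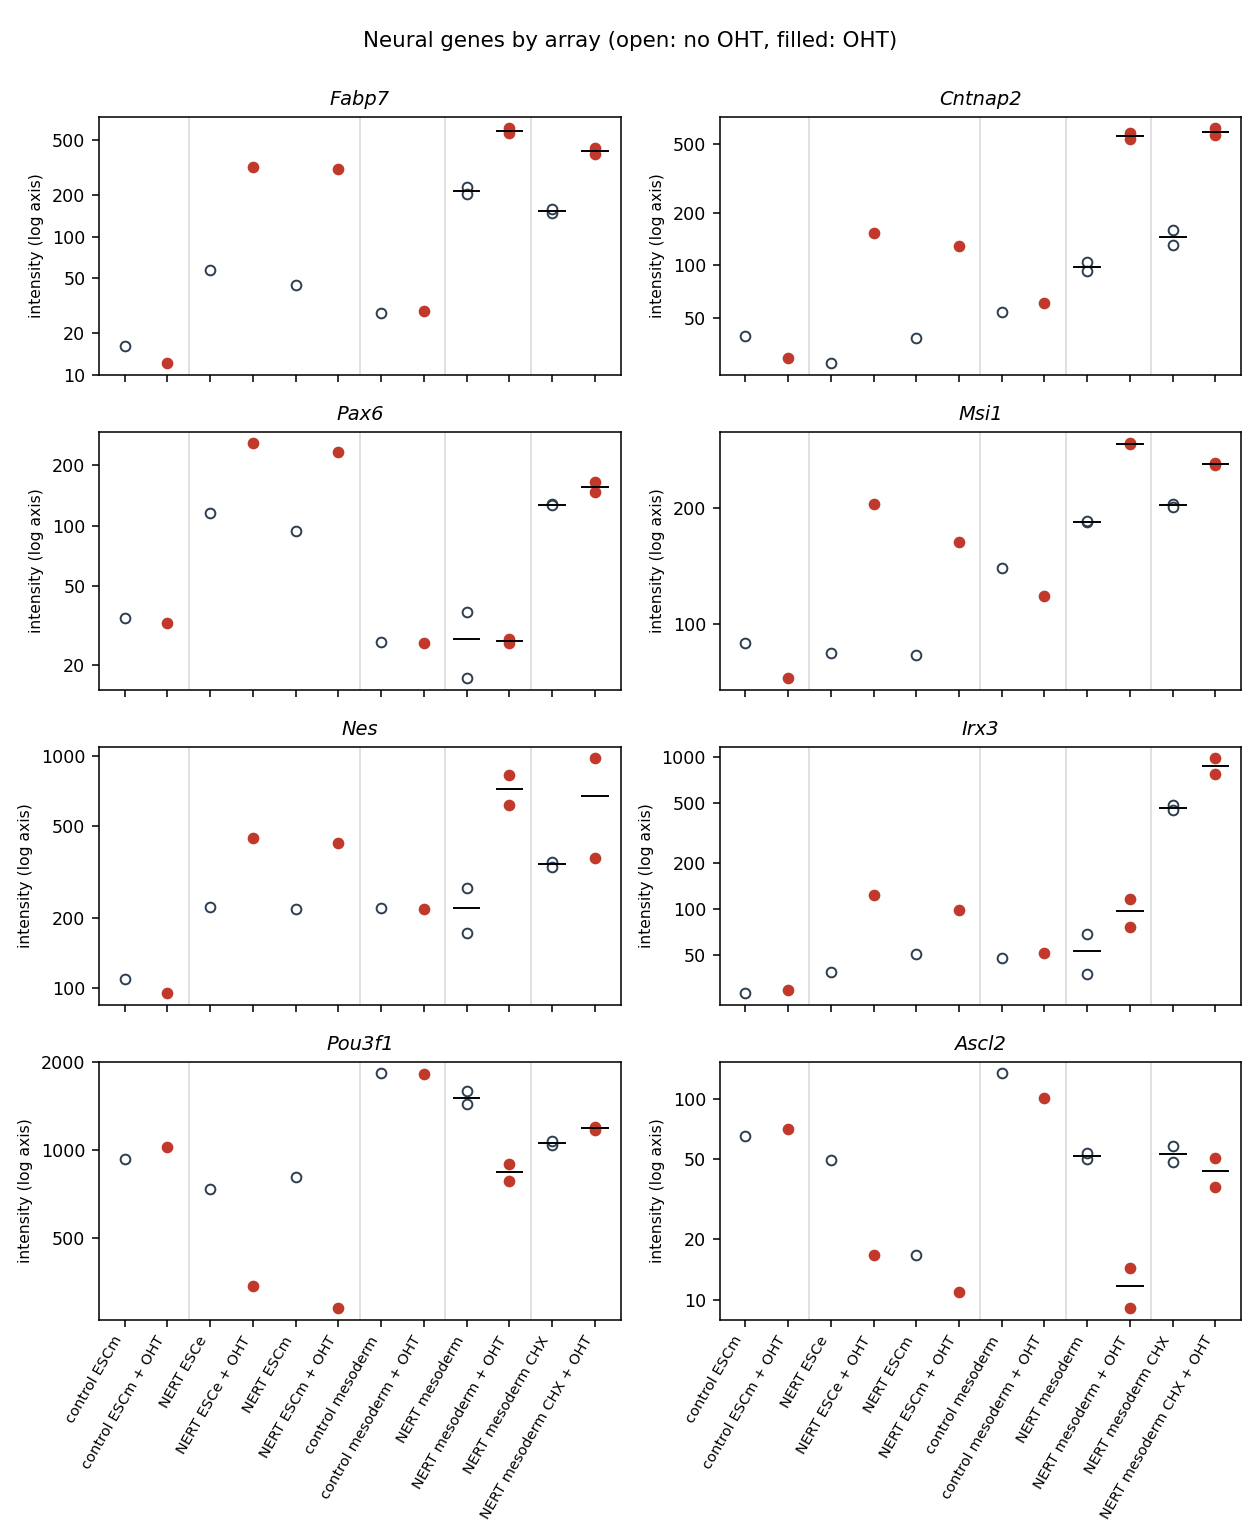
Intensity (log axis) of 8 neural genes on each of the 16 arrays, by condition along the horizontal axis. Open circles are arrays without OHT, filled circles arrays with OHT, and short lines the mean where a condition has 2 arrays. Fabp7 and Cntnap2 are higher with OHT in every NERT condition and not in control cells, Pax6 is higher with OHT in both NERT ESC media and, by less, in mesodermal cells with CHX, and Pou3f1 and Ascl2 are lower with OHT in both NERT ESC media and in NERT mesodermal cells that had no CHX.

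The starts of the genes that moved with OHT were read from RefSeq (GRCm38.p6), 250 bases before to 50 after the start of the transcript. Of the 7 genes called with OHT in any NERT population, 5 had an entry (Fabp7, Cntnap2, Pax6, Ascl2 and Dlx2). The windows were searched on both strands for TGGGAA, the core of the site that RBP-J binds. Fabp7, Cntnap2 and Pax6 are shown because they rose, with any match in capitals, and Pax6 is shown at both of its annotated starts. The windows are chr10:57784673-57784972 (plus strand) for Fabp7, chr6:45059811-45060110 (plus strand) for the upstream start of Cntnap2, and chr2:105668646-105668945 and chr2:105682213-105682512 (plus strand) for Pax6.
Fabp7: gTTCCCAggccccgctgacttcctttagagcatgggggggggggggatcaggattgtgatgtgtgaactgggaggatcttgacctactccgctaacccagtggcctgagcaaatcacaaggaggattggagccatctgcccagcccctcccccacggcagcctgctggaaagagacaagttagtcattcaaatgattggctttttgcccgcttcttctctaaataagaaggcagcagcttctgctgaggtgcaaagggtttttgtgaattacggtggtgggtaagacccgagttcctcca
Cntnap2: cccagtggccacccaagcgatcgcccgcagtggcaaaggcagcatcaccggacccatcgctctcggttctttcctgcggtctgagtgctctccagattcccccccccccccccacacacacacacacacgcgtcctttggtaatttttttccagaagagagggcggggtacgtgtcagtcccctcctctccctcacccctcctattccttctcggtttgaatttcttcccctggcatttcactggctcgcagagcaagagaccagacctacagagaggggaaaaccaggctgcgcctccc
Pax6 upstream start: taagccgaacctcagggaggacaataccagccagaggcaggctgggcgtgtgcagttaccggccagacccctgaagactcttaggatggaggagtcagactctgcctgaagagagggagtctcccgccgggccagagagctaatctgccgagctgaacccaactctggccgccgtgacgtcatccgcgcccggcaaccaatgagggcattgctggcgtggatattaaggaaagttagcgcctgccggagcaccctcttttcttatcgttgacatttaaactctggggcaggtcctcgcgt
Pax6 downstream start: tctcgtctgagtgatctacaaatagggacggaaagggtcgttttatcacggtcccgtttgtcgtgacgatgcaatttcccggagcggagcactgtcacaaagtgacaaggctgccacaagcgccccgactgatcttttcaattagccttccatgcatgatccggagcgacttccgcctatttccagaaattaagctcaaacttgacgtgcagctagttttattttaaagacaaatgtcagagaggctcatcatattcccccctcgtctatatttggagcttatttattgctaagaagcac
Fabp7 held a single match, on the minus strand at position -249 from the start, at the edge of the window. The windows of Cntnap2 (both starts), Pax6, Ascl2 and Dlx2 held none, which says only that these letters are not in these windows. Of all 32851 windows of this kind, 8397 held the motif (25.6%), and 8 of 38 windows of the neural genes did (21.1%), those of Fabp7, Lhx2, Irx3, Gfap, Hesx1, Pax2 and Emx2. A match is a description of the sequence and not a binding site.

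In NERT mesodermal cells without CHX, OHT raised Cntnap2 and Fabp7 and lowered Ascl2 and Pou3f1, 4 of the 21 tested genes beside 0.893% of all probe sets (0.613% higher and 0.28% lower). Cntnap2 read 105 and 92.4 on the uninduced arrays and 575 and 533 on the induced ones, 5.61-fold higher in the mean (log2 change 2.23, SE 0.17, limma adjusted p = 0.000227). Fabp7 read 229 and 202 without OHT and 608 and 565 with it (1.35, SE 0.17, adjusted p = 0.0037), and thus began from a higher level than in ESC. Ascl2 read 49.8 and 53.4, and then 9.04 and 14.4 with OHT (-1.06, SE 0.17, adjusted p = 0.0132 in limma). Pou3f1 read 1594 and 1433, and then 898 and 784 (-0.83, SE 0.16, adjusted p = 0.0385 in limma). None of the 4 genes had overlapping groups, a separation that was not counted over all probe sets and adds nothing to the calls.

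Pax6 read 36.9 and 17.2 without OHT and 27.1 and 26.0 with it in mesodermal cells (0.01, SE 0.19). Nes read 269 and 171 without OHT and 831 and 613 with it, which is 3.28-fold higher in the mean and was not called (1.62, SE 0.37, adjusted p = 0.0889). By the 2-fold criteria it passed beside Fabp7 and Cntnap2, so 3 genes were higher and 0 lower (1.3% of all probe sets, 0.878% higher and 0.422% lower). Msi1 was at 184 and 184.5 without OHT and 294 and 292 with it (0.60, SE 0.16, adjusted p = 0.144). Its replicates lay close together and its groups did not overlap, yet the adjusted test was not passed. Map2, a microtubule protein of dendrites, read 120 and 99.8, and then 55.7 and 74.2 (-0.59, adjusted p = 0.29). The call for Cntnap2 was kept under all 14 alternatives, while Fabp7 lost it without replicate 2 of the uninduced arrays (adjusted p = 0.0622). Ascl2 lost its call without any 1 of the 4 arrays compared (adjusted p 0.0574 to 0.104) and Pou3f1 without any 1 of these or either CHX array without OHT (0.0703 to 0.538), so that 1 to 5 genes were called when an array was left out.

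With CHX present, when new protein could not be made, OHT raised Cntnap2 and Fabp7 again and lowered Dlx2, 3 of 21 genes beside 0.617% of all probe sets (0.567% higher and 0.0501% lower). The same 3 genes passed the 2-fold criteria, beside 0.913% of all probe sets (0.812% higher and 0.101% lower). Cntnap2 read 161 and 131.5 with CHX alone and 610.2 and 558 with CHX and OHT (1.83, SE 0.17, limma adjusted p = 0.000499). Fabp7 read 147 and 157, and then 394 and 436 (1.31, SE 0.17, adjusted p = 0.0039). Neither gene had overlapping groups, which again only describes the values, and these arrays are other arrays than those without CHX. Dlx2, a homeobox factor of forebrain interneurons, read 233 and 147 with CHX alone and 40.0 and 77.5 with OHT added (-1.37, SE 0.24, adjusted p = 0.0296). Without CHX it was under 18 on all 4 NERT mesoderm arrays. Its call was lost without replicate 1 of CHX alone or of CHX with OHT and without either array with OHT alone (adjusted p 0.059 to 0.307), with a pseudocount of 5 (0.0641) and with no filter on low values (0.0799). Fabp7 lost its call without replicate 1 of CHX alone (adjusted p = 0.0677).

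Irx3 read 484 and 445 with CHX alone and 979 and 779 with OHT (0.88, SE 0.24, adjusted p = 0.279). Pou3f1 was at 1041 and 1075 with CHX alone and at 1199 and 1173 with OHT, and Ascl2 at 58.2 and 48.4 and then 36.5 and 50.6. Neither of the genes that fell with OHT without CHX was called with CHX present. The difference of the OHT response with and without CHX was not called for any of the 21 genes (0.025% of all probe sets). An unadjusted p under 0.05 was found for 4 genes and for 1080 of all 23971 tested probe sets. For Pou3f1 the difference was 0.99 (SE 0.22, unadjusted p = 0.00106, adjusted p = 0.414 in limma), for Ascl2 0.87 (SE 0.23, adjusted p = 0.667), for Map2 0.87 (SE 0.27, adjusted p = 0.822) and for Dlx2 -0.96 (SE 0.34, adjusted p = 0.948). For Fabp7 it was -0.04 (SE 0.24) and for Cntnap2 -0.39 (SE 0.25).

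The response in ESC was also set against that in mesodermal cells without CHX. None of the 24 genes was called (0.031% of all probe sets). An unadjusted p under 0.05 was found for 5 genes and for 2114 of all 25847 tested probe sets. Pax6 was higher by 1.06 in its ESC response (SE 0.24, unadjusted p = 0.000696, limma adjusted p = 0.197), and Fabp7 by 0.82 (SE 0.19, adjusted p = 0.216). For Cntnap2 the mesoderm response was the greater, by -0.70 in this direction (SE 0.23, adjusted p = 0.426). The rise of Pax6 with OHT in ESC and the lack of one in mesodermal cells are therefore responses whose difference did not pass the adjusted test. Its level without OHT is another matter and was called lower in NERT mesodermal cells than in NERT ESC (log2 difference -1.34). No gene of the marker lists for pluripotency, early mesoderm, endoderm or fibroblasts was called with OHT in any population.

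CHX itself changed many neural genes, in a comparison that also called 32.8% of all tested probe sets. Without OHT, CHX raised 7 of the 21 genes and lowered 3, beside 21.1% and 11.7% of all probe sets. With OHT, on other arrays, it raised 9 and lowered 3, beside 26.5% and 14% of all probe sets (40.5% in all). The calls of 9 genes were shared and of the same direction, which is 9 of the 10 genes called without OHT and 9 of the 12 called with it. Shared calls were not counted over all probe sets, so this overlap only describes the genes. Among all probe sets, 64.3% of the calls without OHT were higher, and after quantile normalization of the arrays 50.4%, so that shares of rises and falls in this comparison depend on the scaling. With quantile normalization the median over all probe sets moved from 0.10 to -0.04 in the comparison with OHT.

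Irx3 had the greatest rise with CHX of the 21 tested genes, in both comparisons. It read 37.4 and 68.9 without either agent and 484 and 445 with CHX (log2 change 2.67, SE 0.24, limma adjusted p = 5e-05), and with OHT it went from 75.8 and 117 to 979 and 779 (2.91, SE 0.24). Dlx2 rose from 16.1 and 17.7 to 233 and 147 without OHT (2.33, SE 0.24, adjusted p = 9.22e-05). Zic1, a zinc finger factor of early neural plate, went from 19.8 and 14.3 to 111 and 95.8 without OHT (1.61, SE 0.20) and from 20.7 and 5.06 to 68.1 and 58.8 with it (1.25, SE 0.20). Every CHX array was above every array without CHX for these genes. Dlx2 and Zic1 passed the filter on low values only through the CHX groups in which they are high, and the other 8 of the 11 regional genes, Gbx2 and En2 among them, were not tested here, so these rises say nothing about regional genes in general.

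Pax6 stood at 128 and 127 with CHX alone, 4.71-fold above mesodermal cells without it (1.58, SE 0.19, limma adjusted p = 0.000238), and at 166 and 147 with CHX and OHT (1.82, SE 0.19, adjusted p = 7.11e-05). Its CHX arrays thus lay above the uninduced ESC arrays of the same line, at 115 and 93.8. In this fit Pax6 and Neurod1 passed the filter on low values only through the CHX groups. Otx2, the head and forebrain factor, read 660.1 and 366 without CHX and 1516 and 1259 with it (1.44, SE 0.35, adjusted p = 0.00961), and 351 and 206 against 631 and 1204 with OHT (1.61, SE 0.35). Neurod1 rose from 23.2 and 26.8 to 91.1 and 65.0 (1.03, SE 0.17, adjusted p = 0.00113), and Slc1a3, the glial glutamate transporter, from 268 and 209 to 533 and 421 (0.93, SE 0.19, adjusted p = 0.00465). Of the other Slc1a3 probe sets none was called higher, and 1 was called lower with OHT (57.6 to 23.6). Stmn2, a microtubule regulator of growing neurites, fell from 4147 and 3972 to 1479 and 2577 (-1.05, SE 0.21, adjusted p = 0.00436). Gfap, the astrocyte filament, fell from 107 and 83.3 to 51.5 and 48.5 (-0.67, SE 0.17, adjusted p = 0.0143). With OHT, CHX also raised Ascl2 from 9.04 and 14.4 to 36.5 and 50.6 (0.90, adjusted p = 0.0018) and lowered Fabp7 from 608 and 565 to 394 and 436 (-0.47, adjusted p = 0.0437), a call that Fabp7 lost without 7 of the 8 single arrays (adjusted p 0.0654 to 0.145). Pou3f1 was lower with CHX without OHT (-0.50, adjusted p = 0.0315) and higher with OHT (0.49, adjusted p = 0.0304), and by probe set 1422068_at it was lower in both (329 to 110 and 208 to 105, adjusted p = 0.00805 and 0.037), so its direction with OHT depends on the probe set.

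**Figure D3:**
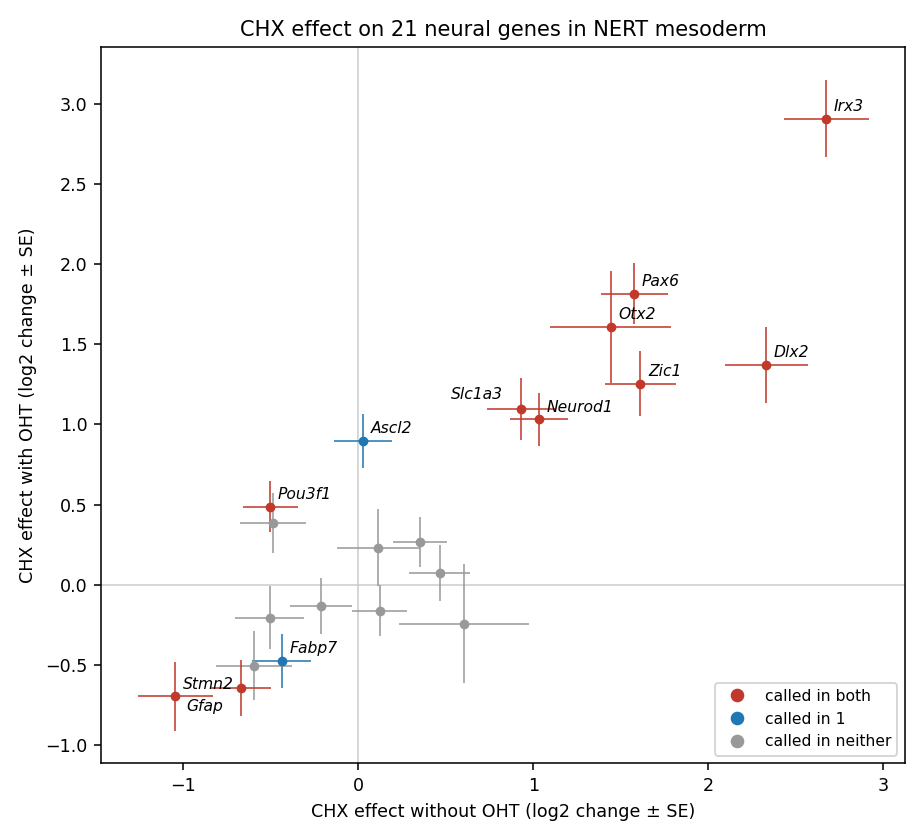
Log2 change with CHX in NERT mesodermal cells for the 21 tested neural genes, without OHT (horizontal axis) and with OHT (vertical axis), with bars of 1 standard error. Red points were called in both comparisons, blue in 1 and grey in neither. Irx3, Dlx2, Pax6, Zic1, Otx2, Neurod1 and Slc1a3 lie above 0 on both axes, Stmn2 and Gfap below 0 on both, and Pou3f1 changes sign.

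Other cell markers moved with CHX. Of 6 early mesoderm markers 5 were lower with CHX without OHT (Mixl1, Eomes, Pdgfra, Fgf8 and Evx1), and the sum of the 6 was 795 to 1189.5 with CHX and 2755 to 3802 without it. The sum of 4 fibroblast markers was 902 to 1305 with CHX and 343 to 536 without, and that of 5 endoderm markers 362 to 570.2 and 118 to 293, with Afp under 25 on every CHX array. Of 5 pluripotency markers Klf4 was higher with CHX in both comparisons, and with OHT Zfp42 was higher and Pou5f1 lower. Their part in the changes of the neural genes was not tested. When 1 array was left out, 6 to 12 genes were called without OHT, with 6 without replicate 1 of CHX alone, and 8 to 12 with OHT. Without OHT, the call was lost for Otx2 under 2 of 14 alternatives, for Slc1a3 under 3, for Pou3f1 under 4 and for Gfap under 3 of 13. With OHT it was lost for Slc1a3 under 1 of 14, for Stmn2 under 5, for Fabp7 under 8 and for Gfap under 2 of 13. Pou3f1 with OHT lost it under 6 of 14 and reversed under 1. Pax6, Zic1, Neurod1, Irx3 and Dlx2 kept their calls under all 14 alternatives in both comparisons. All of these but Irx3 passed the filter of this fit only through the CHX groups in which they are high. Their calls are therefore not independent of the filter.

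Mesodermal cells and ESC differed in neural genes in both lines, and not in 1 direction. In the NERT line 8 of 24 genes were higher and 5 lower in mesodermal cells without OHT, beside 23.9% and 13.4% of all probe sets (37.2% in all). In the control line 7 were higher and 5 lower, beside 12.8% and 8.16% of all probe sets (20.9% in all). The fitted levels of NERT ESC and of control cells also drew on their OHT arrays. Changes can therefore differ from the log2 ratios of the values quoted without OHT. The 2 lines share no array, and 9 genes had the same call, which is 9 of 13 called in NERT and 9 of 12 called in control cells. How many of all probe sets had the same call in both lines was not counted, so this overlap only describes the genes. Higher in mesodermal cells of both lines were Msi1, Fabp7, Pou3f1, Map2 and Stmn2, and lower were Gbx2, Neurod1, Tubb3 and En2.

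Gbx2 had the greatest difference. It stood at 577 and 494 in the NERT ESC arrays and at 25.4 and 52.8 in NERT mesodermal cells (-3.16, SE 0.24, limma adjusted p = 9.05e-07), and at 404 and 45.5 in control cells (-2.54, SE 0.24, adjusted p = 1.69e-05). Neurod1 stood at 171 and 121.5 in NERT ESC and 23.2 and 26.8 in mesodermal cells (-1.76, SE 0.14), and at 233 and 70.7 in the control line (-1.44, SE 0.14). Tubb3, the neuronal beta tubulin, read 264 and 271 in NERT ESC against 43.6 and 62.2 (-1.92, SE 0.20), and 275 against 155 in control cells (-0.77, SE 0.20, adjusted p = 0.0139). En2 was lower by -0.81 and -0.60 (SE 0.14 each).

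Pou3f1 read 735 and 807 in NERT ESC and 1594 and 1433 in mesodermal cells (0.95, SE 0.13, limma adjusted p = 0.000137), and 929 and 1830.2 in the control line (0.89, SE 0.13, adjusted p = 0.00052). Map2 read 24.9 and 28.7 in NERT ESC against 120 and 99.8 (1.38, SE 0.18), and 30.0 against 74.7 in control cells (0.94, SE 0.18). Stmn2 was 2250.2 and 2015 in NERT ESC and 4147 and 3972 in mesodermal cells (0.92, SE 0.19), and 1224 and 2770 in the control line (1.13, SE 0.19). Msi1 was higher in mesodermal cells by 0.95 in NERT and 0.54 in control cells (SE 0.13 each). Fabp7 was higher by 1.67 in NERT and by 0.45 in control cells, where its values of 15.97 and 27.7 lay near the level of undetected probe sets.

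Pax6 was lower in NERT mesodermal cells than in NERT ESC (-1.34, SE 0.17, limma adjusted p = 5.43e-05), from 115 and 93.8 to 36.9 and 17.2. In the control line it read 34.6 in ESCm and 26.2 in mesodermal cells and was not called (-0.20, SE 0.17, adjusted p = 0.453). Cntnap2, Slc1a3 and Gfap were called only in the NERT line (higher in mesodermal cells by 1.10, 1.00 and 0.54), and Gap43, a growth cone protein, Ascl2 and the forebrain factor Hesx1 only in the control line (1.30, 0.60 and -0.50). For these 7 genes the difference between the lines was not tested. With the 12 conditions as groups, which leaves 4 residual degrees of freedom, 4 of the 12 calls in the control line were kept by Neurod1, Gbx2, Pou3f1 and Gap43. Among all probe sets 64.1% of calls in NERT and 61% in control cells were higher, and 49.6% and 51.8% after quantile normalization.

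**Figure D4:**
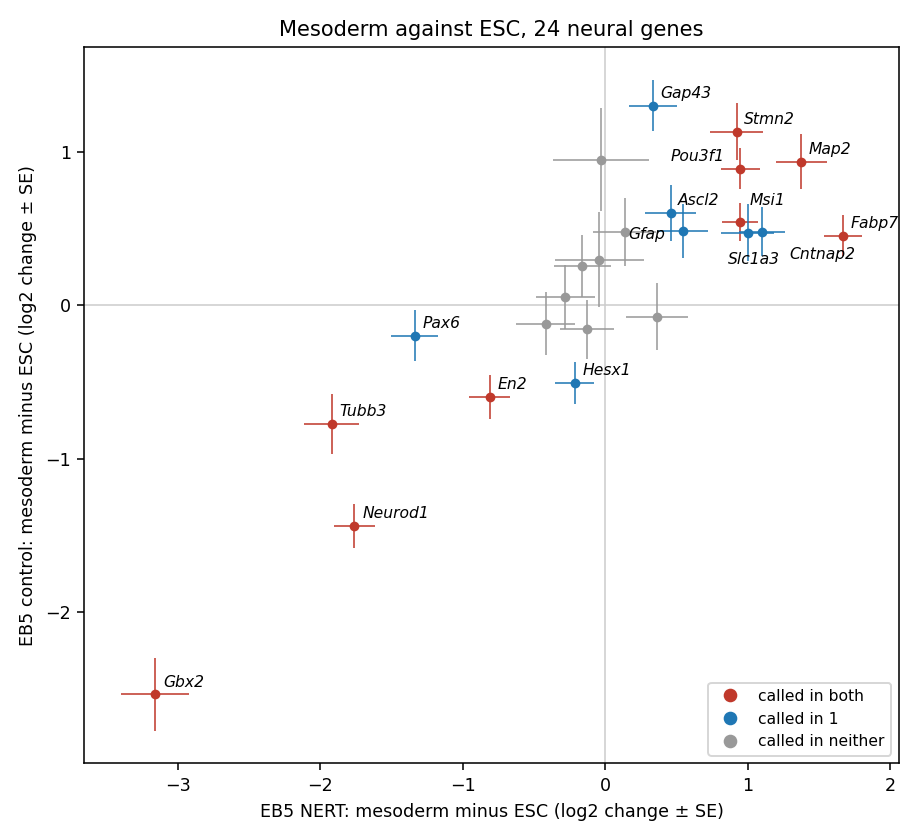
Log2 difference of mesodermal cells from ESC without OHT for the 24 tested neural genes, in EB5 NERT (horizontal axis) and EB5 control cells (vertical axis), with bars of 1 standard error. Red points were called in both lines, blue in 1 and grey in neither. Gbx2, Neurod1, Tubb3 and En2 lie below 0 on both axes, Map2, Stmn2, Pou3f1, Msi1 and Fabp7 above 0 on both.

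The 2 lines were not alike before OHT. In mesodermal cells without OHT 2 of 24 genes were higher and 3 lower in NERT than in control cells, beside 4.42% and 1.49% of all probe sets (5.9% in all). Fabp7 read 229 and 202 in NERT and 27.7 in control cells (2.14, SE 0.15, limma adjusted p = 1.61e-05). Of the Notch check genes, Nrarp stood at 621 and 87.4 in the same cells and was called higher. Hes5 stood at 24.18 and 20.98, both under 25, and was not called (0.128, SE 0.205, limma adjusted p = 0.816). Slc1a3, like Fabp7, was higher in NERT cells (0.79, SE 0.21, adjusted p = 0.0443). Tubb3 read 43.6 and 62.2 in NERT and 155 in control cells (-1.20, SE 0.22, adjusted p = 0.00757), Neurod1 23.2 and 26.8 against 70.7 (-0.93, SE 0.16, adjusted p = 0.00533), and Ascl2 49.8 and 53.4 against 133 (-0.94, SE 0.20, adjusted p = 0.0177). Neurod1 and Ascl2 were the only proneural bHLH genes that could be tested. The call for Ascl2 was lost without either uninduced NERT mesoderm array (-0.91 and -0.98), and that for Neurod1 with the 12 conditions as groups (-0.94). Tubb3 lost its call with the 12 conditions (-1.22) and without replicate 1 of uninduced NERT mesoderm (-1.03). Slc1a3 kept its call under only 7 of 13 alternatives. It was lost with no filter on low values (0.79), quantile normalization (0.67) and the mean of its probe sets (0.445). It was also lost with the 12 conditions (0.88) and without either uninduced NERT mesoderm array (0.63 and 0.95). Line and construct cannot be told apart, and a part of Notch in these differences was not tested. The marker sums given above also differed between the lines, with 5 of 6 early mesoderm markers higher and the pluripotency genes Zfp42 and Klf4 lower in NERT cells, and their part in these differences was not tested. Without replicate 1 of NERT mesoderm 2 of the 5 calls were left, and 3 without replicate 2. Of all calls in this comparison 74.8% were higher in NERT cells, and 60.1% after quantile normalization.

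In ESCm without OHT none of the 24 genes was called between the lines (0.255% of all probe sets). An unadjusted p under 0.05 was found for 8 genes and for 1723 of all 25847 tested probe sets. Pax6 read 93.8 in NERT and 34.6 in control cells (1.03, SE 0.20, unadjusted p = 0.000256, limma adjusted p = 0.0805), and Fabp7 44.6 and 15.97 (0.85, SE 0.16, adjusted p = 0.0685). Gap43 read 164 and 63.5 (1.02, adjusted p = 0.0869), Ascl2 16.7 and 65.4 (-1.06, adjusted p = 0.105) and Neurod1 121.5 and 233 (-0.81, adjusted p = 0.117). With quantile normalization 3 genes passed. Each condition held a single array, and the fitted level of each line also drew on its OHT array. The changes can therefore differ from the log2 ratios of the quoted values. Fibroblast markers summed to 811 to 903 in NERT and 384 to 436 in control ESCm, with Col3a1 called higher. Endoderm markers summed to 219 to 225 in NERT and 650 to 659 in control ESCm, with Sox17 and Gata6 called lower. Their part in these differences was not tested.

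Pax6 was also read by each of its 5 probe sets, which did not behave alike. Probe set 1419271_at is the one used above. Probe set 1452526_a_at ran in parallel, at 35.3 and 66.5 in ESCe without and with OHT, at 30.4 and 72.4 in ESCm, and between 6.08 and 9.72 on the mesoderm arrays without CHX, and it was not called with OHT in ESC (0.71, SE 0.16, limma adjusted p = 0.0984). With CHX it read between 33.5 and 58.2. Probe set 1425960_s_at was weaker and went from 13.9 to 40.1 in ESCe and from 10.5 to 23.7 in ESCm, with no test because no group mean reached 50.

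Probe set 1437816_at behaved otherwise. It read 74.5 and 69.9 in ESCe and 74.6 and 65.5 in ESCm without and with OHT (-0.10, SE 0.13, limma adjusted p = 0.996). It stood between 72.2 and 90.1 in mesodermal cells without CHX and fell with CHX, where the first probe set rose, to between 57.4 and 61.1 (-0.44 without and with OHT, adjusted p = 0.0429 and 0.0352). Probe set 1456342_at stayed between 13.3 and 36.9 with no order by OHT. The rise of Pax6 with OHT in ESC was thus seen with 3 of 5 probe sets and passed the test with 1 of them. What part of the transcript each probe set reads was not examined here.

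**Figure D5:**
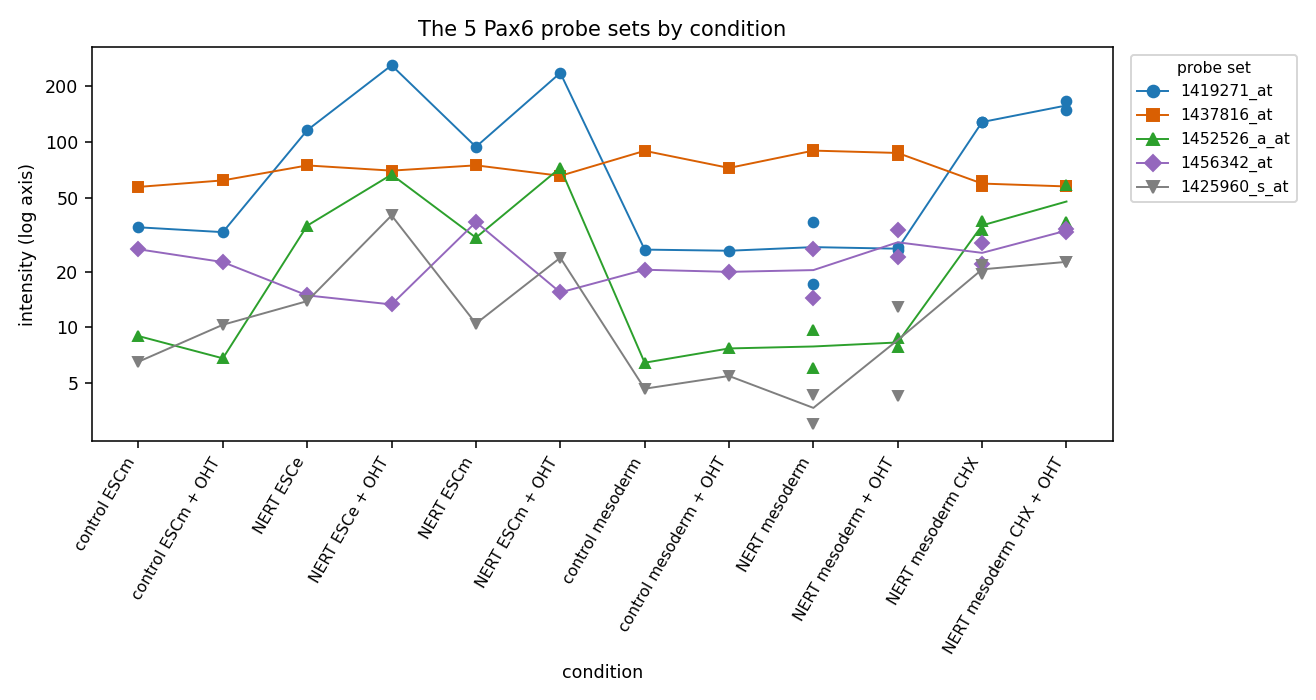
Intensity (log axis) of the 5 Pax6 probe sets by condition. Points are arrays and lines join the means of the conditions. Probe sets 1419271_at, 1452526_a_at and 1425960_s_at are higher with OHT in both NERT ESC media and higher with CHX, while 1437816_at stays between 57.1 and 90.1 on all arrays.

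Over the 12 arrays without CHX, the 5 genes whose log2 values were most like those of Pax6, among 22469 probe sets, were Atp1a4 (Pearson r = 0.97), Tspan17 (0.97), Cipc (0.96), Atp11b (0.96) and Apobec2 (0.96). None is among the neural genes. For Pax6 the 12 arrays fall into NERT ESC with OHT, NERT ESC without OHT and the rest, control ESCm among them. Arrays share these conditions, so the coefficients are a description of that pattern.

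For genes with several probe sets the choice mattered elsewhere too. Nes by probe set 1418289_at read 197 and 197.5 in NERT ESC and 163 and 199 in NERT mesodermal cells without and with OHT, against 220.1 and 722 for the stronger probe set in mesodermal cells. Cntnap2 by 1437782_at read 37.0 and 43.8 in NERT ESC and 29.8 and 29.1 in mesodermal cells without and with OHT. With CHX it read 31.8 and 25.3 without OHT and 54.7 and 54.6 with it (0.57, adjusted p = 0.314 in limma), and the untested 1450758_at read 23.7 and 14.7, and then 42.4 and 30.9. Pou3f1 by 1422068_at fell in parallel to the stronger one without passing the test, from 156 to 70.7 in ESC (-0.92, limma adjusted p = 0.403) and from 329 to 208 in mesodermal cells (-0.60, adjusted p = 0.769). Slc1a3 had 6 probe sets, of which 3 were called higher and 2 lower in NERT mesodermal cells than in NERT ESC.

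Among the 24 tested genes, limma called Nes, the adhesion molecule Ncam1 (56.5 to 151 over all arrays), the eye-field factor Six3 (26.3 to 68.0) and Cend1 in no comparison. By the 2-fold criteria Nes passed with OHT in mesodermal cells and Cend1 in ESCe, as given above. By role, the progenitor and glial genes (Nes, Msi1, Fabp7, Slc1a3 and Gfap) held 2 rises with OHT in ESC and 1 in mesodermal cells (0.507% and 0.613% of all probe sets), with medians of 0.90 and 0.60 (log2). The 7 tested neuronal genes held 1 rise in ESC, that of Cntnap2, and a median of -0.09. The 2 tested proneural genes held 1 fall, that of Ascl2 in mesodermal cells, where 0.28% of all probe sets fell.

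A list of 65 other neural genes, of which 43 could be tested in the fit of 16 arrays and 42 in that of 8, held none that was called with OHT in any population. At an unadjusted p under 0.05 there were 6 in NERT ESC, 6 in mesodermal cells, 6 with CHX and 0 in control cells. Over all tested probe sets the counts were 1602 of 25847, 1924 of 23971, 1413 of 23971 and 308 of 25847, in the same order. CHX raised 12 of these 42 genes and lowered 4 without OHT, which is 28.6% and 9.52% beside 21.1% and 11.7% of all probe sets and so near the background. Among those called, Sox1, the early neuroectoderm factor, rose from 17.7 to 178 (2.25, limma adjusted p = 1.18e-05), Stmn4, a stathmin of neurons, from 21.5 to 384 (3.15, adjusted p = 1.95e-05), and the homeobox factor Meis2 from 127 to 530.4 (1.88, adjusted p = 0.000144). Cdh2 (N-cadherin) fell from 1394 to 557 (-1.29, adjusted p = 0.00223). Between mesodermal cells and ESC 11 of 43 were higher and 6 lower in the NERT line (25.6% and 14%, beside 23.9% and 13.4% of all probe sets), which is about the background, among them the neurofilament gene Nefm (148 in ESC and 978 in mesodermal cells) and Foxd3, a factor of ESC and neural crest (280.2 and 22.0).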

How the data were processed

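Affymetrix whole-genome mouse arrays were hybridised with 16 samples. The deposited values are linear intensities that the authors computed with dChip as model-based expression after invariant-set normalization, with the OHT array of control mesodermal cells as the baseline. They were used as deposited, without the detection calls. The platform annotation gives 1 gene symbol for 34945 probe sets, several for 932 and none for 9160, and all 37 symbols are in the RefSeq gene table.

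Intensity plus 25 was taken to log2 and tested, where the mean of any group reached 50, with limma 3.58.1 (lmFit, eBayes with trend) in R 4.3.3, two-sided, with Benjamini-Hochberg adjustment over all tested probe sets. The 8 NERT mesoderm arrays (23971 probe sets, 4 residual degrees of freedom) gave the OHT and CHX effects in mesodermal cells. All 16 arrays (25847 probe sets, 6 residual degrees of freedom) gave the others, with an OHT term shared by both NERT ESC media and another by both control populations, so that an unreplicated array borrows its error from the replicated ones and from differences between these populations. The levels without OHT of these populations were thus estimated from their arrays without and with OHT. The limma fits of 8 and of 16 arrays were tried on simulated data for some of the comparisons, and the promoter search was not. Figures were drawn with matplotlib 3.10.9 in Python 3.11.15.

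All genes of the set could be named, with full values for those past the threshold, and outside it Hes5, Nrarp, called genes of the list of other neural genes, cell markers and the 5 genes most like Pax6. The set, the lists and the tests were chosen with earlier results of these data known. Alternatives were another pseudocount, no filter on low values, quantile normalization, the mean of a gene's probe sets, the 12 conditions as groups, a replicate block, the 2-fold criteria, the fit of all 16 arrays, and leaving out each replicate.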

Additional observations from a re-analysis of the deposited data

Results flagged for a closer look

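The OHT response of NERT ESC differed from that of control cells for 4 neural genes, by a test of the difference itself in limma over all 16 arrays. On the log2 scale the responses differed by 2.22 for Fabp7 (adjusted p = 0.000307), 1.59 for Cntnap2 (adjusted p = 0.016), 1.16 for Msi1 (adjusted p = 0.0216) and -1.30 for Pou3f1 (adjusted p = 0.0169). Of these, Fabp7 kept its call under every alternative tried. Msi1 lost it with the 12 conditions as groups and without either uninduced NERT mesoderm array (adjusted p up to 0.201), and Cntnap2 and Pou3f1 lost it with the 12 conditions or the mean of the probe sets (adjusted p up to 0.454 and 0.193). Both NERT media moved in the direction of the difference for each gene. NERT and control cells also differ in line, which cannot be told apart from the construct.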

How the results depend on the processing

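Of 902 values of called neural genes under alternatives, 811 kept their call, 90 lost it and 1 reversed. The reversal was Pou3f1 with CHX and OHT, which went from 0.49 to -0.24 with the mean of its probe sets. With the mean of a gene's probe sets, the genes called with OHT went from 4 to 2 in mesodermal cells and from 5 to 2 in ESC, the responses of ESC minus control cells from 4 to 1, and NERT minus control ESCm from 0 to 2. With the 2-fold criteria, CHX with OHT went from 12 to 6, mesoderm minus ESC in the control line from 12 to 6, and NERT minus control ESCm from 0 to 3. With the 12 conditions as groups, ESC minus control responses went from 4 to 1, mesoderm minus ESC in the control line from 12 to 4, and NERT minus control mesoderm from 5 to 2. NERT minus control ESCm went from 0 to 1 with a pseudocount of 5 and from 0 to 3 with quantile normalization. Mean signals near 25 limit what weak probe sets can show, and the cause of these shifts was not tested.

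Leaving out 1 replicate gave 1 to 5 called genes for OHT in mesodermal cells, 1 to 3 with CHX, 6 to 12 for CHX without OHT and 8 to 12 with OHT. It gave 5 to 6 for OHT in ESC, 3 to 4 for the ESC minus control responses, 12 to 14 and 12 to 15 for mesoderm minus ESC in the NERT and control lines, 2 to 6 for NERT minus control mesoderm and 1 to 1 for NERT minus control ESCm. The counts of 0 for the other comparisons stayed at 0. Where an arm then held 1 array, that array is assumed to vary as the other groups do.

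By the labels, replicates 1 and 2 of the 4 NERT mesoderm groups share only a number. The differences between replicates correlated at 0.513 between the group without either agent and the group with OHT alone. For the other pairs of groups the correlation was 0.007 to 0.209. The main tests took no account of a pairing. With the replicate number as a block the counts went from 4 to 4 for OHT, 3 to 3 for OHT with CHX, 0 to 0 for their difference, 10 to 13 for CHX without OHT and 12 to 13 with OHT.

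In the comparison of the lines in ESCm, 37.9% of all calls were higher in NERT cells, and 50.5% after quantile normalization. For mesoderm minus ESC in the NERT line the median over all probe sets moved from 0.06 to -0.04.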
